A study of Mus musculus with 24 samples.

Results

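The 8 transcripts described here were chosen as transcripts of B cells and plasma cells: Jchain, Mzb1, Derl3, Cd79a, Cd79b, Ms4a1, Igkc and Ighm. They are 8 of the 17301 genes in the expression table, and all 8 were found by matching Ensembl identifiers, without their versions, to mouse symbols. The set was chosen by cell type and by the measured fall of Jchain in tumour monocytes, so the monocyte values are given as a description, without a test. None of the sorted populations was meant to hold B cells or plasma cells, and the question was where these transcripts lay over the 8 groups and whether single libraries carried them. Ighm had at least 737 reads in every library, and Cd79b had its highest group mean in tumour macrophages. These 2 transcripts are thus not taken here as signs of B cells alone.

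RNA was sequenced from 4 myeloid populations, each from healthy colon lamina propria (LP, strain label C57/BL) and from colon tumours (strain label APC/Min, mice that carry a mutant Apc allele and form intestinal adenomas). The populations were F4/80hi MHCIIhi macrophages (Ma.Hi), F4/80hi MHCIIlow macrophages (Ma.Lo), Ly6Chi MHCII- monocytes (Mo) and Ly6Ghi neutrophils (Ne). Each of the 8 groups had 3 libraries, 24 in all, made from the pooled tissue of several adult mice of both sexes, with the pools numbered in Roman numerals within a tissue. The tumour mice had received dextran sodium sulphate (DSS). The study's methods describe DSS for wild-type mice too, but the labels call their LP healthy, so the treatment of the LP donors is not settled. The methods also describe a different dissociation for each tissue, with the epithelium stripped from LP alone, so dissociation, strain and tissue cannot be told apart. P values measure the spread between pools, which the fit shares over all 8 groups for each gene. A group with a wide spread thus widens the SE of every comparison of that gene.

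Plasma cells secrete antibody, and in the gut most of it is IgA, whose units are linked by the J chain before transport across the epithelium. The load of secreted protein passes through the endoplasmic reticulum (ER), where the chaperone Mzb1 and the degradation factor Derl3 act on newly made chains. B cells display membrane immunoglobulin together with the signalling chains Cd79a and Cd79b, and carry the surface protein Ms4a1 (CD20), which plasma cells lose. Igkc encodes the constant part of the kappa light chain and Ighm that of the IgM heavy chain.

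Upstream sequences of Jchain, Derl3 and Cd79a, the members matched in the promoter table, are shown because these genes cover the antibody, ER and receptor roles described here. They are RefSeq sequences of GRCm38.p6 and stop before any annotated transcript of the gene begins. Capitals mark an ER stress response element, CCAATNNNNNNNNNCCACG, searched on both strands, as was the octamer ATGCAAAT, a motif of immunoglobulin promoters. The element overlaps 1 CCAAT box. Jchain is shown from chr5:88527898-88528147 on the minus strand, Derl3 from chr10:75893148-75893397 on the plus strand and Cd79a from chr7:24897247-24897380 on the plus strand.
Jchain: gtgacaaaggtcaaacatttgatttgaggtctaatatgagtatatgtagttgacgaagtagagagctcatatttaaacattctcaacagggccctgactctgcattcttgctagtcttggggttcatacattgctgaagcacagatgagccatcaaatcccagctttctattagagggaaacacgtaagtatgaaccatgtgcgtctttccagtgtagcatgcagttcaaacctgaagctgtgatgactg
Derl3: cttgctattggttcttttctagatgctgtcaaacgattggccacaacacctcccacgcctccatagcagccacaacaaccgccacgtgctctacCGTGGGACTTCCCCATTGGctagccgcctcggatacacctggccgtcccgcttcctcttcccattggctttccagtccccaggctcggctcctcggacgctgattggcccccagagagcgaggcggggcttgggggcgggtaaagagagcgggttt
Cd79a: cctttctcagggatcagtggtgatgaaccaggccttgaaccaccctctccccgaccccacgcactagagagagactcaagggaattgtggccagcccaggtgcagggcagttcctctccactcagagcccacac
The ER stress element was found once in the Derl3 sequence and in neither of the others. Among 32851 promoters, 0.11% held it in the 250 bases before the start. The octamer was in none of the 3 sequences, against 1.6% of all promoters, which says only that these letters are not in these windows.

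Values are log2 RPKM as deposited, that is, reads scaled by gene length and library size on a log2 scale, so levels can be compared between genes per length. The libraries held from 12838061 to 41718078 reads on genes. A gene with 0 reads had the same low value in every library, and 3 reads was taken as the floor of detection. The populations carried their own markers, with Adgre1 (F4/80) at a mean of 8.79 in LP and 8.64 in tumour MHCIIhi macrophages, and Ly6g at 6.01 in LP and 8.05 in tumour neutrophils. By group mean on the log2 scale, Igkc was the highest member in all 4 LP groups and Ighm in all 4 tumour groups.

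**Figure D1:**
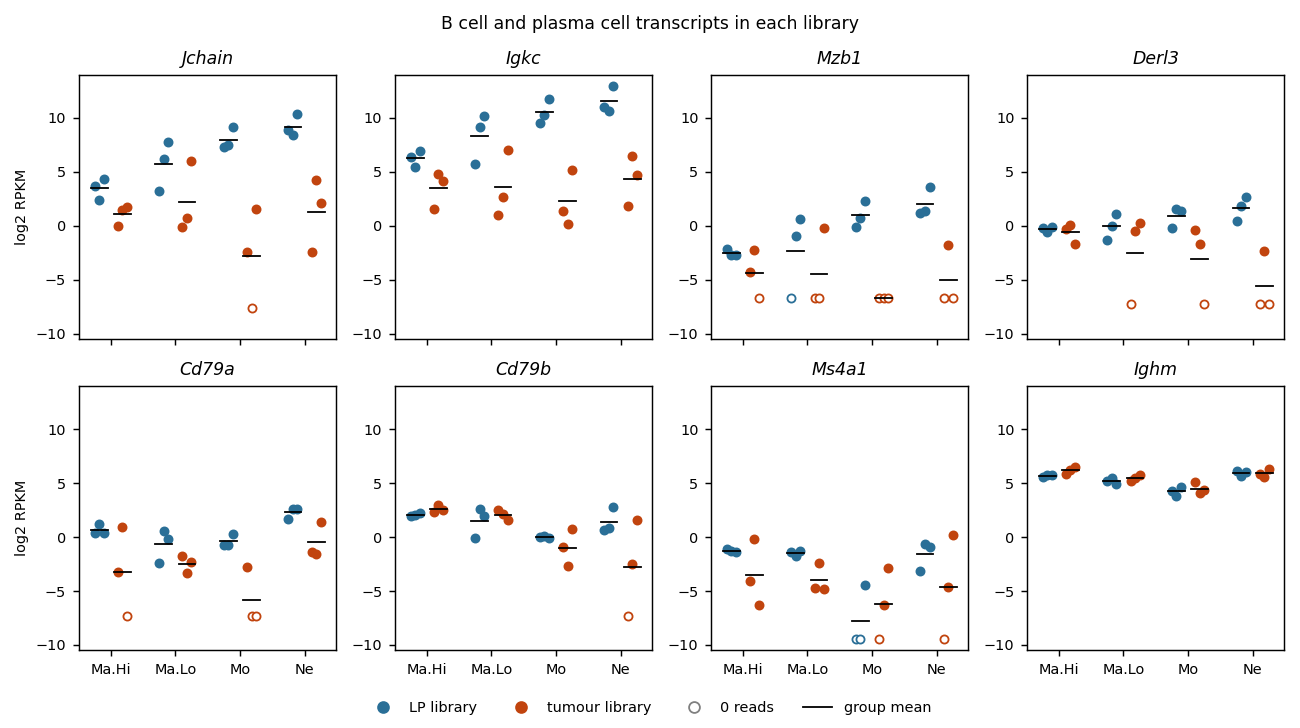
Level of each member (log2 RPKM) in every library, by population on the horizontal axis, with LP libraries in blue, tumour libraries in orange, group means as black lines and libraries with 0 reads as open circles. Jchain and Igkc rise from MHCIIhi macrophages to neutrophils in LP and are low in most tumour libraries, whereas Ighm stays between 3.83 and 6.47 in all 24 libraries.

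Jchain (ENSMUSG00000067149.6, chromosome 5, 88519809 to 88527891 of GRCm38, minus strand) had the widest range of the set on the log2 RPKM scale, from -7.68 (0 reads) in 1 tumour monocyte library to 10.31 (49449 reads) in 1 LP neutrophil library. In LP, its level was 3.68, 2.39 and 4.29 log2 RPKM in MHCIIhi macrophages of pools III, IV and V, and 3.19, 6.17 and 7.79 in MHCIIlow macrophages of pools II, III and IV. LP monocytes of pools III, IV and V had 7.27, 7.46 and 9.15, and LP neutrophils of the same pools had 8.82, 8.41 and 10.31. The order of the LP means was thus neutrophils (9.18 ± 1.00, SD, n = 3), monocytes (7.96 ± 1.04), MHCIIlow (5.72 ± 2.34) and MHCIIhi macrophages (3.45 ± 0.97), and neighbours in this order overlapped. In tumours, MHCIIhi macrophages of pools I, V and VII had 0.01, 1.41 and 1.76, and MHCIIlow macrophages of these pools had -0.12, 0.67 and 6.03. Tumour monocytes of pools I, II and V had -2.41, -7.68 and 1.54, which are 10, 0 and 136 reads, and tumour neutrophils of these pools had -2.46, 4.26 and 2.06. Pool VII of the tumour MHCIIlow macrophages thus stood at the level of LP libraries, with 3306 Jchain reads against 44 and 126 in the other libraries of its group.

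In monocytes, where the set was chosen, mean Jchain was 10.81 lower in tumours than in LP on the log2 scale, from a mean of 299 to 1.03 RPKM. The value leans on the library with 0 reads, and the difference was -8.39 without it. Every tumour monocyte library lay below every LP monocyte library for 5 of the 8 members (Jchain, Igkc, Mzb1, Derl3 and Cd79a), while 15.1% of the 12878 genes with a mean of at least 1 RPKM in some group did so. The median difference over the 8 members was -4.73, or -4.02 with Mzb1 at its bound, and that over all 12878 genes was 0.00. These figures describe the contrast that chose the set.

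In neutrophils, the plasma cell transcripts were far lower in tumours. Jchain differed by -7.89 (SE 1.91, limma's moderated test, Benjamini-Hochberg adjusted p = 0.0035), with every tumour library below every LP library. The fall was called in all 16 alternative settings, with differences from -9.38 to -6.02. Of the 7 members tested, 5 were called lower in tumour neutrophils and none higher, where 19.0% of all genes tested were called lower and 13.1% higher. Mzb1 and Derl3, both among the 5, reached a mean of 1 RPKM in LP groups only. They entered the test through LP and could hardly have been called higher in tumours, so their calls are a description. For 5 of the 8 members (Jchain, Igkc, Mzb1, Derl3 and Cd79a) no tumour neutrophil library reached any LP neutrophil library, against 21.8% of all genes. The median difference over all genes was -0.12.

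In both macrophage subsets the differences of Jchain were smaller and did not pass the test, at -2.39 (SE 1.91, limma adjusted p = 0.447) in MHCIIhi and -3.52 (SE 1.91, limma adjusted p = 0.204) in MHCIIlow cells. This SE comes from the spread over all 8 groups. The SD of Jchain was 0.97 and 0.92 in LP and tumour MHCIIhi macrophages, against 4.62 in tumour monocytes and 3.43 in tumour neutrophils. The 3 tumour MHCIIhi libraries were all below the 3 LP libraries for Jchain and Igkc, and all above them for Cd79b and Ighm. Of all genes tested, 22.1% lay below in this way and 20.9% above, so neither count stood apart from the background. Of the 7 members tested none was called in MHCIIhi macrophages by limma, where 11.5% of all genes were called lower and 8.01% higher. Cd79a alone had an unadjusted p under 0.05 there, and limma with voom on recovered reads called that 1 member. In MHCIIlow macrophages the libraries separated, among the 8 members, for Ms4a1 only, lower in tumours, as did 19.3% of all genes. Without pool VII, the tumour library with high Jchain, the Jchain difference was -5.44 with a limma adjusted p of 0.0592.

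**Figure D2:**
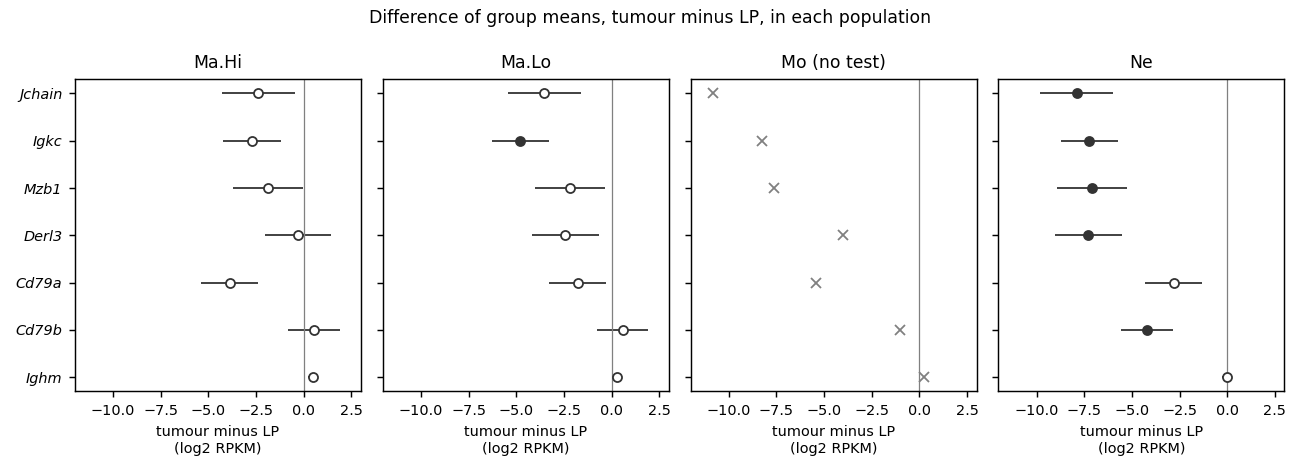
Difference of group means, tumour minus LP, for the 7 members that passed the filter (log2 RPKM), in 4 panels by population. Circles are limma estimates with bars of 1 SE, filled where the adjusted p was under 0.05, and crosses are monocyte differences without a test; filled circles are 5 members in neutrophils and Igkc in MHCIIlow macrophages.

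Igkc (ENSMUSG00000076609.2, chromosome 6, 70726435 to 70726966, plus strand) followed Jchain most closely. LP neutrophils of pools III, IV and V had 11.01, 10.61 and 12.94 log2 RPKM, and LP monocytes of these pools had 9.53, 10.23 and 11.70. Tumour neutrophils of pools I, II and V had 1.81, 6.42 and 4.65, and tumour monocytes 1.38, 0.17 and 5.18. Unlike Jchain, the light chain had at least 10 reads in every library. In LP MHCIIlow macrophages of pools II, III and IV it was at 5.73, 9.13 and 10.16, against 1.01, 2.63 and 7.02 in tumour pools I, V and VII. Pool VII was again the highest tumour macrophage library.

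Igkc differed by -7.23 on the log2 scale in tumour neutrophils (SE 1.51, limma adjusted p = 0.0011), and this call held in all 16 alternatives. It was also the only member called in MHCIIlow macrophages, where it fell by 4.79 (SE 1.51, limma adjusted p = 0.0258), with 11.8% of all genes called lower and 11.5% higher. The groups overlapped, and the call was lost in 6 of 16 alternatives, with limma adjusted p from 0.00393 to 0.145 over all of them. Among these were voom on recovered reads, which called 0 members there (2 had an unadjusted p under 0.05), and leaving out LP pool III or IV or tumour pool I or V. In MHCIIhi macrophages the difference was -2.73 (SE 1.51, limma adjusted p = 0.237).

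Igkc and Jchain stood in a narrower ratio in LP than in tumours. Over the 12 LP libraries Igkc exceeded Jchain by 2.18 to 3.0 on the log2 scale (median 2.59), and over the 11 tumour libraries in which both had more than 3 reads by 1.00 to 4.27 (median 2.41). LP libraries had at least 453 Jchain reads. Tumour pool I had 10 Jchain and 25 Igkc reads in monocytes and 4 and 14 in neutrophils. Counting error widens such ratios, and its part in the wider range was not tested. Pearson's r of the pair was 0.96 over the 24 libraries, and 0.93 for deviations from the group means, which leave out the differences between groups. All correlations here are descriptions over libraries that share pools and depth. The genes outside the set most like Jchain in level were Ighj2 (r = 0.952), Igha (0.941), Igkj5 (0.885), Igkj2 (0.876) and Ighj4 (0.868), all rows of immunoglobulin genes. For deviations from the group means they were Ighj2 (0.836), Lat (0.822), Trp53inp1 (0.799), Igha (0.772) and Ighv1-26 (0.756).

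**Figure D3:**
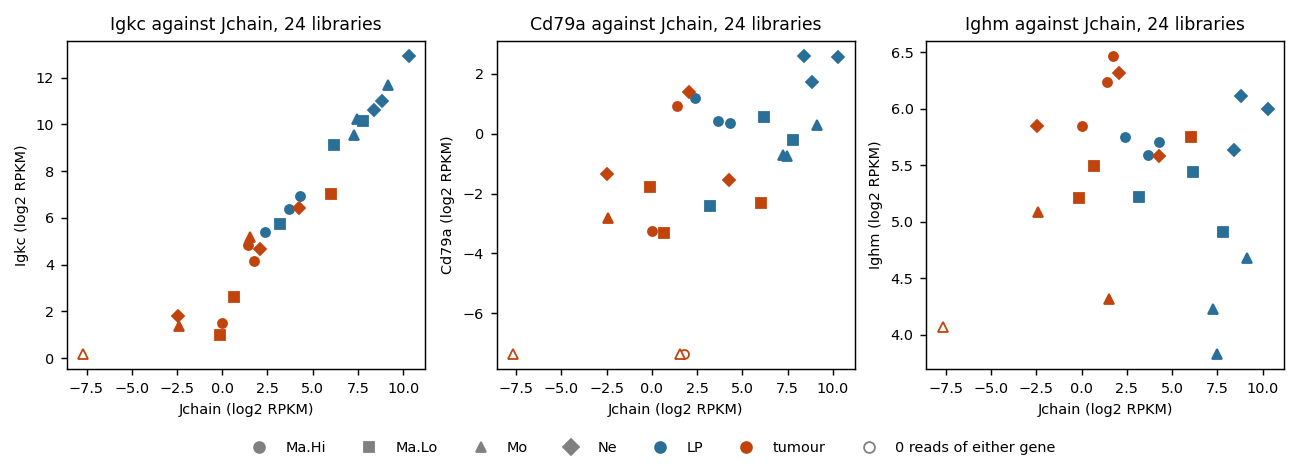
Igkc, Cd79a and Ighm against Jchain (log2 RPKM on both axes) in the 24 libraries, with symbols for populations, blue for LP, orange for tumour and open symbols where either gene had 0 reads. Igkc lies along 1 line with Jchain (r = 0.96), Cd79a scatters (r = 0.64) and Ighm shows no trend (r = 0.05).

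The antibody signal was not limited to the 2 immunoglobulin members. The table holds 171 immunoglobulin rows, of which 153 are variable segments, and without Ighm they took 0.354% to 1.247% of the reads of LP neutrophils and 0.340% to 1.015% of those of LP monocytes. LP MHCIIlow macrophages had 0.0123% to 0.316%, and LP MHCIIhi macrophages 0.0113% to 0.0304%. Among the tumour libraries the share ran from 0.000222% (exact 95% binomial interval 0.000173% to 0.000282%, for counting error only) in monocytes of pool I to 0.122% in MHCIIlow macrophages of pool VII. The next highest tumour library had 0.0120%, in monocytes of pool V. The library of pool VII thus lay above all 3 LP MHCIIhi libraries and within the range of its LP counterparts. In LP, pool V had the highest share among the 3 libraries of MHCIIhi macrophages, of monocytes and of neutrophils, and it had no MHCIIlow library.

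More variable segments were detected in LP libraries than in tumour libraries. LP neutrophils had 93 to 130 variable segments with more than 3 reads, LP monocytes 88 to 116, LP MHCIIhi macrophages 48 to 66 and LP MHCIIlow macrophages 29 to 52. Tumour libraries had 1 to 23. In all, 153 segments passed 3 reads in some LP library and 65 in some tumour library, none of them in tumours alone. A library with fewer reads shows fewer segments, and reads on variable segments ran from 20403 to 116978 in LP neutrophils and from 66 to 532 in tumour neutrophils. LP MHCIIhi macrophages, at 967 to 2657 such reads, had more segments than the tumour MHCIIlow library of pool VII, which had 13 with 6898 reads. At lower read numbers the tissues were closer. LP MHCIIlow macrophages of pool II had 29 segments with 927 reads, and tumour MHCIIhi macrophages of pool V had 23 with 593. The part of read number in the difference between tissues was not tested.

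**Figure D4:**
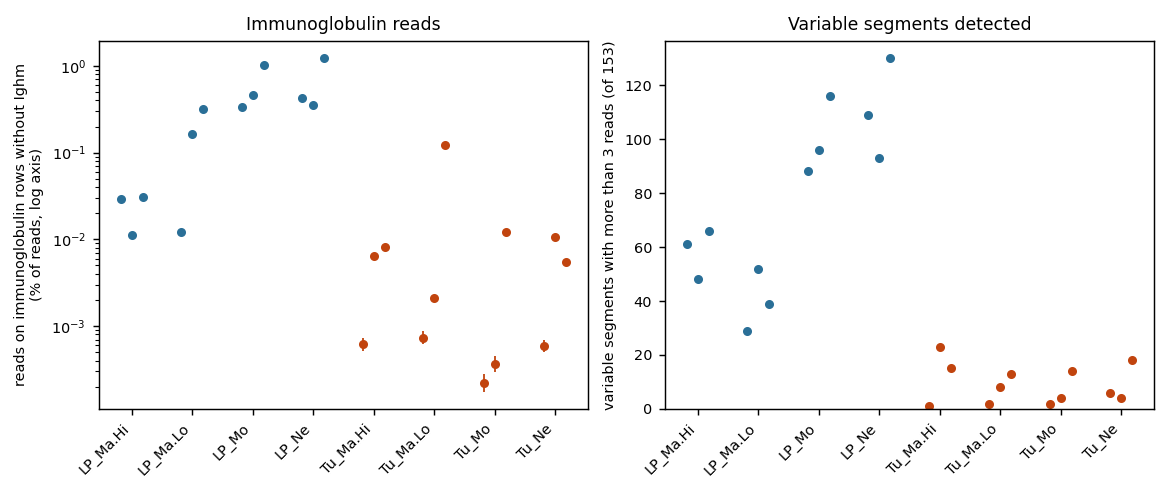
Left, share of reads on immunoglobulin rows other than Ighm in each library (percent, log axis) with exact 95% binomial intervals. Right, number of variable segments with more than 3 reads, of 153, in the same libraries; LP neutrophils reach 93 to 130 and no tumour library exceeds 23.

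Igha, the heavy chain of IgA and the most abundant of the other constant region genes, moved with Jchain and Igkc. Its mean was 10.79 ± 0.95 log2 RPKM (SD, n = 3) in LP neutrophils and 3.37 ± 2.35 in tumour neutrophils, a difference of -7.42 (SE 1.63, limma adjusted p = 0.0016). Its means were 9.72 ± 0.84 and -0.72 ± 2.23 in LP and tumour monocytes. Igha differed by -3.15 (SE 1.63, limma adjusted p = 0.199) in MHCIIhi and by -4.05 (SE 1.63, limma adjusted p = 0.0802) in MHCIIlow macrophages. Of 7 other constant region genes tested, 4 were called lower in tumour neutrophils (Igha, Ighg2c, Ighg2b and Iglc2), 1 in MHCIIhi macrophages (Ighg2b) and none in MHCIIlow macrophages by limma. The shares of all genes called lower there were 19.0%, 11.5% and 11.8%, so the count in MHCIIhi macrophages was near the background. With voom 3 of the 7 were called in neutrophils and 0 in MHCIIhi macrophages, and with quantile normalization 2 in neutrophils. In MHCIIlow macrophages 1 had an unadjusted p under 0.05, voom called 1 and the median of the 7 differences was -1.37. The medians were -7.42 in neutrophils and -2.25 in MHCIIhi macrophages. In tumour neutrophils Ighg2b had 0, 0 and 1 reads, and its mean in LP neutrophils was 6.12 ± 1.01. Iglc2, a lambda light chain, had means of 5.88 ± 0.47 and -3.22 ± 4.99 in LP and tumour neutrophils and reached 7.32 in tumour MHCIIlow macrophages of 1 pool, where the lowest and the median were at 0 reads (-6.10).

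Mzb1 and Derl3, both of the ER, were low and near the floor in many libraries. Derl3 (ENSMUSG00000009092.5, chromosome 10, 75893413 to 75895941, plus strand) had 0.47, 1.81 and 2.69 log2 RPKM in LP neutrophils of pools III, IV and V, from 44 to 185 reads. Tumour neutrophils had 0, 2 and 0 reads in pools I, II and V. LP neutrophils held 70.3 times the tumour rate over pooled reads (exact 95% interval 19.3 to 583, counting error only), from 292 against 2 reads. The limma difference was -7.28 (SE 1.75, adjusted p = 0.0033), and its size depends on the value given to 0 reads. It was called in all 15 alternatives that tested the gene. In tumour monocytes Derl3 had 30, 11 and 0 reads, against 28 to 173 in LP monocytes. In MHCIIhi macrophages Derl3 differed by -0.29 between tissues (SE 1.75, limma adjusted p = 0.946), with 37 to 48 reads in LP and 12 to 62 in tumours.

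Mzb1 (ENSMUSG00000024353.5) was detected with more than 3 reads in 11 of 12 LP libraries and in 2 of 12 tumour libraries. LP neutrophils of pools III, IV and V had 1.16, 1.31 and 3.58 log2 RPKM (48, 30 and 232 reads), and LP monocytes -0.10, 0.67 and 2.25 (21, 63 and 156 reads). No tumour monocyte library had a read, which makes the gene at least 16.2-fold lower there with a floor of 3 reads in each library. Tumour neutrophils had 0, 2 and 0 reads. LP neutrophils held 74.6 times their pooled rate (exact 95% interval 20.5 to 619, counting error only). The limma difference in neutrophils was -7.07 (SE 1.84, adjusted p = 0.0060), which again depends on the value at 0 reads, and it was called in all 16 alternatives. Mzb1 was at 0 reads in 2 tumour MHCIIlow libraries and at 22 reads in pool VII. Of the 51-base stretches of its transcripts 53.4% are shared with the annotated gene SPATA24, which overlaps its exons on the same strand, so its counts are uncertain. Levels of Mzb1 correlated with Igkc at r = 0.91 and with Jchain at r = 0.87 over the 24 libraries.

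The B cell receptor chains were below 3 log2 RPKM in every library. Cd79a (ENSMUSG00000003379.7, chromosome 7, 24897381 to 24902197, plus strand) had 1.71, 2.60 and 2.56 log2 RPKM in LP neutrophils and -1.35, -1.54 and 1.38 in tumour neutrophils. These groups did not overlap, but the difference of -2.80 (SE 1.5) had a limma adjusted p of 0.166. In LP MHCIIhi macrophages it was at 0.42, 1.18 and 0.35, and in their tumour counterparts of pools I, V and VII at -3.24, 0.91 and -7.36, that is, 4, 121 and 0 reads. The difference of -3.88 (SE 1.5) had a limma adjusted p of 0.0775, and without tumour pool V it was -5.95 with an adjusted p of 0.00446. Cd79a also differed by -1.78 (SE 1.5, limma adjusted p = 0.446) in MHCIIlow macrophages, where it had 6 to 11 tumour reads. Tumour monocytes had 6, 0 and 0 reads, against 22, 38 and 64 in LP monocytes.

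Over the 24 libraries Cd79a had r = 0.64 with Jchain, but r = 0.11 for deviations from group means. The genes outside the set most like it in level were Pou2af1 (0.797), 9130230L23Rik (0.794), Col1a1 (0.779), Tubb4b (0.778) and Gm22435 (0.769). Pou2af1 is a coactivator of octamer factors in B cells, and Col1a1 is a collagen of fibroblasts. By deviations they were Micall2 (0.799), Map2k4 (0.796), Castor1 (0.786), Zhx2 (0.774) and Cd24a (0.759).

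Cd79b (ENSMUSG00000040592.11, chromosome 11, 106311341 to 106314762, minus strand) had its highest library, at 2.94 log2 RPKM, in tumour MHCIIhi macrophages, unlike the plasma cell transcripts. LP MHCIIhi macrophages had 1.92, 2.06 and 2.23 log2 RPKM and tumour MHCIIhi macrophages 2.31, 2.94 and 2.54. The differences were 0.53 (SE 1.36, limma adjusted p = 0.85) in MHCIIhi and 0.58 (SE 1.36, limma adjusted p = 0.823) in MHCIIlow macrophages. Cd79b had an SD of 0.16 and 0.32 in LP and tumour MHCIIhi macrophages, against 4.45 in tumour neutrophils, which share this SE. In neutrophils it was at 0.67, 0.87 and 2.77 in LP and at -7.33, -2.49 and 1.55 in tumours, which are 0, 2 and 32 reads. Cd79b was called lower there, at -4.20 on the log2 scale (SE 1.36, limma adjusted p = 0.0226), although the groups overlapped. This call was lost in 5 of 16 alternatives, over which adjusted p ran from 0.000232 to 0.266, and without tumour pool I, at 0 reads, the difference was -1.91 with a limma adjusted p of 0.164. Without LP pool V it was -3.53 with an adjusted p of 0.0916.

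Ms4a1 (ENSMUSG00000024673.9, chromosome 19, 11249675 to 11266241, minus strand) had a mean of at most 0.417 RPKM in any group and so was the member left out of the tests. It had 73 to 119 reads in LP MHCIIhi macrophages and 38 to 101 in LP MHCIIlow macrophages, but 0, 0 and 10 in LP monocytes, the group in which Jchain was 7.96 on average. Tumour MHCIIlow macrophages had -4.72, -2.37 and -4.79 log2 RPKM, all below the -1.34, -1.80 and -1.25 of LP. In tumour MHCIIhi macrophages 246 of its reads came from pool V, against 10 and 2 in pools I and VII. That same library had 121 Cd79a reads, the most of any tumour library for that gene. Scaled by library size, however, tumour neutrophils of pool V were higher for both genes. They had 1.38 log2 RPKM of Cd79a against 0.91, and 0.19 of Ms4a1 (54 reads) against -0.15. This was the highest Ms4a1 value of the 24 libraries.

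Ighm (ENSMUSG00000076617.9, chromosome 12, 113418558 to 113422730, minus strand) was present at 737 to 6303 reads in every library. Its group means ran from 4.25 ± 0.43 log2 RPKM (SD, n = 3) in LP monocytes to 6.19 ± 0.31 in tumour MHCIIhi macrophages. The SD within groups was 0.34, against 2.59 for Jchain. Tumour and LP differed by 0.50 (SE 0.26, limma adjusted p = 0.199) in MHCIIhi macrophages, by 0.29 (SE 0.26, adjusted p = 0.473) in MHCIIlow macrophages and by 0.00 (SE 0.26, adjusted p = 1.0) in neutrophils, by the same test. Ighm took up 72.9% to 95.4% of immunoglobulin reads in tumour and 26.5% to 50.8% in LP MHCIIhi macrophages, and 11.1% to 92.6% in tumour and 2.4% to 43.1% in LP MHCIIlow macrophages. In monocytes its share was 0.6% to 1.2% in LP against 24.7% to 96.6% in tumours, and in neutrophils 0.6% to 1.9% against 28.5% to 89.7%. Its correlation with Jchain was r = 0.05.

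Neither macrophage comparison within a tissue called a member. MHCIIlow minus MHCIIhi in LP gave 2.27 for Jchain (SE 1.91, limma adjusted p = 0.589), 2.11 for Igkc (SE 1.51, adjusted p = 0.497) and -0.49 for Ighm (SE 0.26, adjusted p = 0.30), with 0 of 7 members called against 7.70% of all genes. In tumours it was again 0 of 7, against 1.13%. Ighm was the 1 member with an unadjusted p under 0.05 there, at -0.70 (SE 0.26, limma adjusted p = 0.239). Voom on recovered reads called 0 members in either, with 0 and 1 under an unadjusted p of 0.05.

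Whether the fall in tumours differed between populations was tested as a difference of differences by the same limma model. Between MHCIIlow and MHCIIhi macrophages 0 of 7 members were called, 0 had an unadjusted p under 0.05 and voom also called 0, against 1.46% of all genes, with Igkc at -2.06 (SE 2.14, adjusted p = 0.823). Neutrophils against MHCIIhi macrophages, a comparison added after the data were seen, also gave 0 of 7, against 17.5%. There Igkc, Derl3 and Cd79b had an unadjusted p under 0.05 and voom called 1 member. Derl3 came nearest, at -6.99 (SE 2.47, limma adjusted p = 0.057), then Cd79b at -4.73 (SE 1.92, adjusted p = 0.0966), Igkc at -4.50 (SE 2.14, adjusted p = 0.158) and Jchain at -5.50 (SE 2.70, adjusted p = 0.171). Neutrophils against MHCIIlow macrophages, added likewise, gave 0 of 7 against 23.6%, with Cd79b alone under an unadjusted p of 0.05 (-4.77, SE 1.92, limma adjusted p = 0.0786) and 1 call with voom. No member was thus shown by the main test to fall more in neutrophils than in macrophages. In some other settings Jchain, Mzb1, Derl3, Cd79b or Ighm was called against MHCIIhi macrophages and Mzb1, Derl3 or Cd79b against MHCIIlow macrophages, but Igkc in none.

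Of 9 other plasma cell genes tested, 5 were called lower and 2 higher in tumour neutrophils, where 19.0% of all genes were called lower and 13.1% higher. With other scalings and voom, 2 to 5 were lower and 1 to 2 higher there. In tumour MHCIIhi macrophages 4 were lower, and in tumour MHCIIlow macrophages 3, against 11.5% and 11.8% of all genes. In these subsets 3 to 4 were lower and up to 1 higher with the other scalings and voom. The transcription factor Xbp1, the most abundant at a mean of 7.50 log2 RPKM over all libraries, was higher in tumour neutrophils by 0.53 (SE 0.18, limma adjusted p = 0.027), but not with quantile normalization (0.21, adjusted p = 0.316) or library sizes as summed reads (0.06, adjusted p = 0.789). It was lower in tumour MHCIIlow macrophages by 0.72 (SE 0.18, adjusted p = 0.005). The elongation factor Ell2 was higher in tumour neutrophils by 1.78 (SE 0.26, limma adjusted p = 2.88e-05), and the surface receptor Slamf7 was lower there by 2.26 (SE 0.34, adjusted p = 5.11e-05), but not called with voom (adjusted p = 0.0579). Slamf7 was lower in tumour macrophages too, by 1.31 in MHCIIhi (SE 0.34, limma adjusted p = 0.0094) and by 1.76 in MHCIIlow cells (SE 0.34, adjusted p = 0.00073). Prdm1, the plasma cell regulator, was lower in tumour neutrophils by 0.84 (SE 0.24, limma adjusted p = 0.0121), but not called with median centring (-0.59, adjusted p = 0.0689). Irf4 and Txndc5 were also called lower there by limma, and both calls were lost with voom (adjusted p = 0.0625 and 0.25). Slamf7, Xbp1, Prdm1 and Ell2 are also expressed by myeloid cells, and here exceeded 3 reads in macrophages of both tissues.

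Pou2af1 had means of 1.94 ± 0.84 log2 RPKM in LP neutrophils and -5.88 ± 3.98 in tumour neutrophils (0, 0 and 8 reads by rank; limma adjusted p = 0.0023), and was at 0 reads in all tumour monocyte and tumour MHCIIlow libraries. It was also lower in tumour MHCIIhi macrophages (limma adjusted p = 0.0196), as were Sdc1 by 3.68 (SE 0.46, adjusted p = 7.87e-06) and Irf4 by 1.98 (SE 0.68, adjusted p = 0.0446). Irf4 was lower in tumour MHCIIlow macrophages by 4.96 (SE 0.68, limma adjusted p = 1.75e-05). Neither gene followed the order of Jchain over the groups. Sdc1 was highest in monocytes, at means of 8.56 log2 RPKM in LP and 7.79 in tumours. Irf4 averaged 2.89 and 3.43 in LP MHCIIhi and MHCIIlow macrophages, above the 0.90 of LP monocytes and 0.73 of LP neutrophils. Between macrophage subsets Prdm1 was lower in MHCIIlow cells of LP and Slamf7 in those of tumours.

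Of 13 other B cell genes limma called 0 between tissues in MHCIIhi macrophages, MHCIIlow macrophages and neutrophils, with 0, 1 and 3 under an unadjusted p of 0.05 and medians of -0.27, -0.84 and -1.62. Voom on recovered reads called 1, 2 and 0, all of them higher in tumours. The most abundant were the surface receptor Cd72, the Fc receptor-like protein Fcrl1 and the scaffold protein Bank1. Cd72 averaged 5.62 log2 RPKM in LP and 6.36 in tumour MHCIIhi macrophages but -1.09 and -1.33 in LP and tumour monocytes. Bank1 averaged 2.10 and 3.47 in MHCIIhi macrophages, and -2.44 and -2.32 in monocytes. Fcrl1 averaged 2.53 and 2.38 in LP and tumour neutrophils. Of 12 genes of B cell receptor signalling, shared with myeloid cells, 4 were higher and 2 lower in tumour MHCIIhi macrophages, 6 and 1 in MHCIIlow macrophages and 4 and 2 in neutrophils. The balance in neutrophils turned with library sizes as summed reads, where 3 were higher and 6 lower. Of 17 ER folding and degradation genes, 13 were lower and none higher in tumour neutrophils, with a median of -0.75. With other scalings 6 to 17 of them were lower there and none was higher. In MHCIIhi macrophages 1 was higher and 2 lower, and in MHCIIlow macrophages 5 were higher and 2 lower. Of all genes, 8.01% were called higher and 11.5% lower in MHCIIhi macrophages, 11.5% and 11.8% in MHCIIlow macrophages and 13.1% and 19.0% in neutrophils. The ER counts in MHCIIhi macrophages were near this background.

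Markers of other cell types also differed between the tissues, and their part in these results was not tested. Of all genes tested, 11.5%, 11.8% and 19.0% were called lower in tumour MHCIIhi macrophages, MHCIIlow macrophages and neutrophils. All 4 fibroblast genes tested were lower in tumour macrophages of both subsets, and 3 of 4 were lower in tumour neutrophils. Their summed level ranged from 17.9 to 35.1 RPKM in LP and from 1.26 to 1.57 in tumour neutrophils, and from 9.50 to 25.2 and from 0.00855 to 0.178 in LP and tumour monocytes, where Col1a1, Col1a2, Col3a1 and Pdgfra had 0 reads in tumours. In MHCIIlow macrophages the same sum was 18.3 to 51.7 in LP and 0.318 to 0.644 in tumours, pool VII included. Of 3 dendritic cell genes tested 2 were lower in tumour MHCIIhi macrophages and 2 in tumour neutrophils, where their sum of 6 genes went from 76.7 to 146.9 RPKM in LP down to 2.59 to 18.5. All 5 MHC class II genes, which B cells and dendritic cells also express, were lower in tumour neutrophils, or 3 to 5 with the other scalings and voom. In macrophages none was called lower, and Ciita was called higher in tumour MHCIIhi cells and Ciita and H2-Ab1 in tumour MHCIIlow cells, where the median difference was 1.55. Of 4 monocyte genes Chil3, Vcan and Ly6c2 were lower in tumour MHCIIhi macrophages (median -3.99, summed level 15.7 to 20.1 RPKM in LP and 7.67 to 11.2 in tumours) and Vcan in tumour MHCIIlow macrophages. Of 5 neutrophil genes Ly6g and Retnlg were higher in tumour MHCIIlow macrophages (summed level 1.15 to 7.02 RPKM in LP and 11.8 to 16.6 in tumours) and S100a9 in tumour MHCIIhi macrophages. Of 11 epithelial genes 1, 1 and 2 were called higher in tumour MHCIIhi macrophages, MHCIIlow macrophages and neutrophils, and none lower. The shares of all genes called higher there were 8.01%, 11.5% and 13.1%. Their summed level was 24.5 to 89.2 RPKM in LP and 198 to 382 in tumour neutrophils. In MHCIIlow macrophages the sums overlapped, at 29.4 to 41.4 in LP and 15.9 to 278 in tumours. Of 6 T and NK cell genes 1, Cd2, was lower in tumour neutrophils. Mcpt1, a mast cell protease, was 1 of 4 mast cell genes called, higher in tumour MHCIIlow macrophages and neutrophils. In sorted bulk RNA fewer cells of a type and less RNA per cell cannot be told apart.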

How the data were processed

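Sorted cells were sequenced with a modified SMARTSeq v2 protocol, which does not mark strand, in paired reads of 51 bases. The authors deposited 1 table of log2 RPKM values for 24 libraries. Per the labels and the submitters' processing notes, reads were aligned with STAR 2.3 to GRCm38, counted with featureCounts 1.5 on GENCODE genes and scaled with edgeR. All 24 columns were matched to labels, and 0 columns were left unused.

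Undoing the scaling with a prior of 0.25 reads gave whole reads for 100% of the 415224 values, within 0.001 reads. Genes with a mean of at least 1 RPKM in some group (12878 of 17301) were fitted with limma 3.58.1 in R 4.3.3 on log2 RPKM, with 8 group means over all 24 libraries, trended variances and Benjamini-Hochberg adjustment per comparison at 0.05. Tumour and LP monocytes were not tested. Ratios and intervals from reads cover counting error only (95%, exact). Depth ran from 12838061 to 41718078 reads on genes. Python 3.11.15, pandas 2.3.3, numpy 2.4.6, scipy 1.17.1 and matplotlib 3.10.9 were used, and positions come from GENCODE M21. The fit was tested on simulated data.

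The members and lists were chosen with earlier results of these data known. Named were all 8 members, in the lists of other plasma cell, constant region and B cell genes the 3 most abundant genes and those called (at most 5 per comparison), and for Jchain and Cd79a the 5 genes with the highest Pearson's r by level and by deviation. Alternatives were 2 pseudocounts (1 and 0.1), no filter or a mean of at least 5 RPKM, quantile normalization, median centring, only the groups compared, voom on recovered reads, the pool as a replicate block and each library left out. Library sizes as summed reads, and the comparison of tumour effects between neutrophils and macrophages, were added after the data were seen. Pairing comes from the labels, which call the pool number a donor. Deviations from group means in 29 pairs of libraries of 1 pool and tissue correlated at r from -0.066 to 0.255 (median 0.017), with an estimated block correlation of 0.0476.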

Additional observations from a re-analysis of the deposited data

How the results depend on the processing

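Single members were followed between tissues, and in the other comparisons only where a value is given above. They kept their direction and side of the threshold, or moved by less than the spread between replicates, in 563 alternative values. In 16 values a member became called and in 11 it ceased to be called. In monocytes 5 values of members other than Jchain moved by more than that spread. Mzb1, Derl3 and Ighm gained further calls in tumour effects of neutrophils, which only the counts below include. The cause of these changes was not tested. The count of members called was 1 in MHCIIhi macrophages with voom, and 0 to 1 with each library left out, the 1 being Cd79a without tumour pool V. In MHCIIlow macrophages it was 0 with voom and with only the groups compared, and 0 to 1 with a library left out. In neutrophils it was 4 to 5 with a library left out and 4 to 6 over all alternatives, with 6 for log2(RPKM + 0.1). For the tumour effect of neutrophils against MHCIIhi macrophages it was 3 with log2(RPKM + 1), 2 with log2(RPKM + 0.1), 1 with only the groups compared, 1 with voom, 3 with library sizes as summed reads and 0 to 1 with a library left out. Against MHCIIlow macrophages it was 2 with log2(RPKM + 1), 1 with voom, 1 with summed reads and 0 to 1 with a library left out. Of all 12878 genes, log2(RPKM + 1) called 1495 lower and 1441 higher against MHCIIhi and 2050 and 1760 against MHCIIlow macrophages. Voom called 749 lower and 1056 higher against MHCIIhi and 1192 and 1242 against MHCIIlow macrophages. The monocyte difference of Jchain was -7.23 with log2(RPKM + 1) and -13.00 to -8.39 with a library left out.

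Values near 0 changed sign. Derl3 in MHCIIhi macrophages was 0.23 without tumour pool VII (range -0.64 to 0.23), and Cd79b in MHCIIlow macrophages was -0.22 without LP pool II (range -0.22 to 1.14). Ighm in neutrophils was -0.07 with quantile normalization, -0.03 with voom, -0.47 with summed reads, -0.14 without LP pool IV and -0.20 without tumour pool V (range -0.20 to 0.17). Cd79a in neutrophils was called with both pseudocounts, at adjusted p = 0.0019 and 0.0241 by limma.

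With the pool as a random replicate block Jchain in neutrophils was -7.78 (limma adjusted p = 0.00396), and this block changed no call on a member. With the pool as a fixed block, the comparisons of macrophage subsets called 0 of 12878 genes in either tissue, so they say nothing about the members.

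Over all genes, neutrophils had 2452 called lower and 1690 higher, against 4147 and 806 with summed reads (median -0.55), 1788 and 2375 with median centring, 1423 and 1444 with quantile normalization, 1394 and 1374 with voom, and 1208 and 1158 with only the groups compared. MHCIIhi macrophages had 1480 and 1031, against 1965 and 1832 with voom and 1237 and 1363 with summed reads. Within tissues, MHCIIlow against MHCIIhi macrophages had 717 lower and 274 higher in LP, against 1099 and 741 with voom, 957 and 738 with log2(RPKM + 1) and 393 and 703 with summed reads (median 0.22), and 73 lower and 73 higher in tumours, against 156 and 85 with voom, 43 and 167 with summed reads and 2 and 2 with only the groups compared. The tumour effect of MHCIIlow against MHCIIhi macrophages gave 42 lower and 146 higher, against 209 and 330 with voom, and those of neutrophils 1095 and 1155 against MHCIIhi (2908 and 575 with summed reads) and 1741 and 1299 against MHCIIlow macrophages (3191 and 836 with summed reads). Members at 0 to 3 reads in a library were at the limit of detection at this depth.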

Other observations

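The leading variable segment held 20.7% to 69.2% of the variable segment reads in the 12 tumour libraries, which had 21 to 6898 such reads. In tumour neutrophils of pool II, Ighv14-3 held 69.0% of 532 reads, and in tumour MHCIIlow macrophages of pool VII, Ighv10-1 held 35.2% of 6898. In LP it held 18.9% to 32.1% in MHCIIlow macrophages and 7.0% to 10.9% in the libraries of the other 3 populations. Some tumour libraries shared their leading segment, Ighv5-16 in MHCIIlow macrophages and neutrophils of pool V and Ighv10-1 in MHCIIlow macrophages of pools I and VII. The lead of Ighv10-1 in pool I was 20.7% of 29 reads. Ighv1-81 led across pools and populations, in tumour MHCIIhi macrophages of pool I (21 reads on variable segments) and tumour monocytes of pool II (34). It also led in LP monocytes of pool V. Variable segments resemble each other in sequence, which makes counts of single segments uncertain.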
